A study of Mus musculus with 8 samples.

Results

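A set of 181 genes had values of 1 FPKM and above in each of the 4 NIC/c-Src+/+ libraries and values under 1 FPKM in each of the 4 NIC/c-SrcL/L libraries. FPKM scales a gene's fragment count by its length and by the depth of the library, so levels can be compared between genes of different length. The genes were chosen by these measured values, without rescaling, and make up 181 of the 39993 genes in the table and 181 of the 10730 genes that reached 1 FPKM in all 4 control libraries. Any difference between the genotypes in these genes is therefore a description of the choice and carries no test.

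RNA-Seq was performed on 4 mouse mammary tumor cell lines of the FVB/N strain. All 4 lines carry the NIC transgene, in which the MMTV promoter drives oncogenic ErbB2 together with Cre recombinase in the mammary epithelium. The control lines m5567 and m8905 have wild-type Src (NIC/c-Src+/+). The deficient lines m4447 and m9327 are homozygous for a conditional Src allele that Cre deletes (NIC/c-SrcL/L). Biological duplicates of every line made up the 8 libraries. Cre was thus present in both genotypes, each line is a single source of cells, and the cultures received serum, EGF, insulin, hydrocortisone and bovine pituitary extract, so the lines stand for cultured tumor cells and not for the mammary gland.

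ErbB2 is a receptor tyrosine kinase that is amplified in a subset of breast cancers. c-Src is a non-receptor tyrosine kinase that is recruited to active ErbB2 and related receptors and passes their signal on to pathways of growth, survival and cell movement. A gene that is transcribed weakly or not at all in a cell line can be held there by missing activators, by repressive chromatin such as the H3K27me3 mark placed by Polycomb repressive complex 2, or by DNA methylation, and an RNA level does not distinguish between these. The table lists genes by identifiers of the FVB/NJ annotation and does not pair them with names. None of them (0 of 39993) was found in the reference tables of gene names used here. For this reason 2 genes are given by identifier and the others by their rank, the roles of the genes are not described, and neither Src itself nor markers of mammary epithelium were analysed here.

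The reads behind each value could be solved, because a gene's FPKM is a whole number of reads scaled by whole lengths and totals. This held for all 22673 genes above 0 in at least 1 library. The totals by which the values had been divided, inferred from the values, were for the duplicates of m5567 15231180 and 15808372, for those of m8905 17773742 and 14069716, for those of m4447 16533393 and 17253236, and for those of m9327 17090276 and 14956966. For a member of median length, 1 FPKM corresponded to 35.0 reads, with a range over the members from 0.981 to 128 reads.

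Most of the 181 genes still had reads in the NIC/c-SrcL/L lines, although often few. Of the 181, 126 had at least 1 read in each of the 4 NIC/c-SrcL/L libraries, 88 had over 3 reads in each, and 49 had at least 10 reads in each. In contrast, 14 members had 3 reads or fewer in all 4 libraries, too few to measure a level closely, and 1 member had 0 reads in all 4. Both duplicates of a line were at 3 reads or fewer for 65 members in m4447 and for 20 in m9327. Absence of expression in both lines was therefore seen for few members at this depth, and the set is described below by its rule, as genes that crossed 1 FPKM. In bulk RNA, fewer cells that express a gene and less RNA in each cell cannot be told apart.

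The level in the control lines was low for most members. The mean of the control lines ran from 1.16 to 77.7 FPKM, with a median of 2.26 and quartiles of 1.64 and 4.34. Over all 10730 control-expressed genes, those at 1 FPKM or more in each control library, the median was 14.7 FPKM. A control mean of at least 2 FPKM was reached by 103 members, at least 5 FPKM by 37 and at least 10 FPKM by 11.

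The medians of the set were close in the 4 control libraries, although some members differed between the control lines, as described further down. The median over the members was 2.23 and 2.26 FPKM in the duplicates of line m5567 and 2.14 and 2.18 FPKM in those of m8905. In the NIC/c-SrcL/L libraries the medians were 0.174 and 0.170 FPKM in line m4447 and 0.514 and 0.481 FPKM in line m9327. Duplicates were close to each other, and the level of line m9327 was intermediate.

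**Figure D1:**
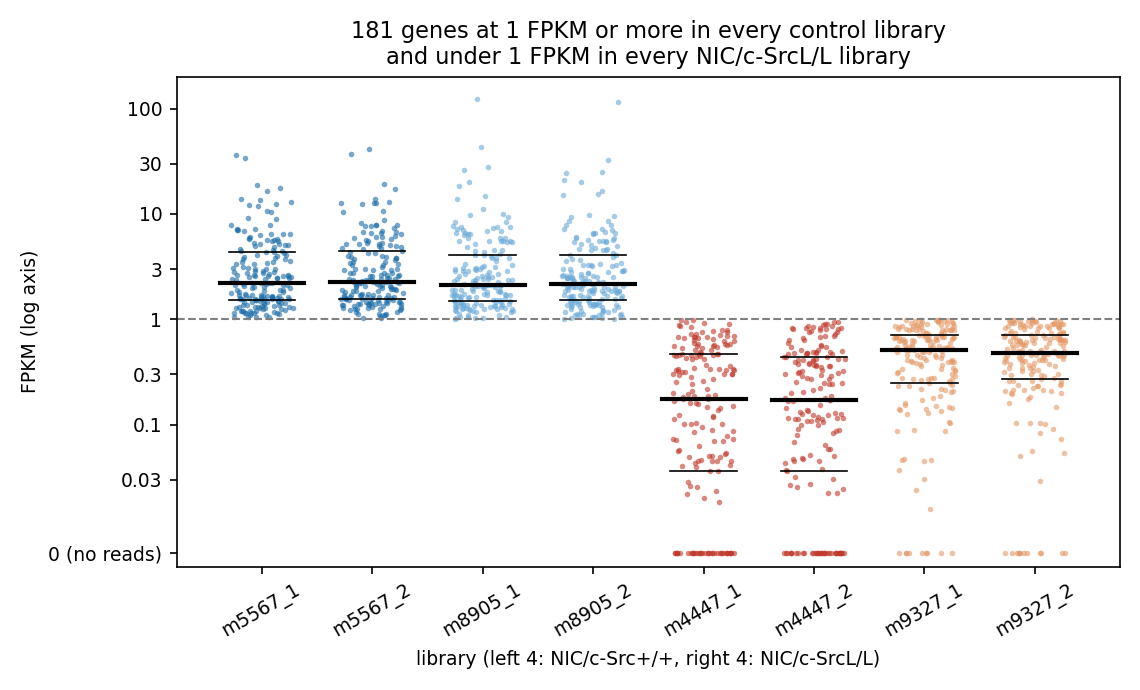
FPKM of the 181 genes in each library on a log axis, 1 point a gene, with genes without reads drawn at the bottom, a thick bar at the median, thin bars at the quartiles and a dashed line at 1 FPKM. The medians lie between 2.14 and 2.26 FPKM in the control libraries, at 0.174 and 0.170 FPKM in m4447 and at 0.514 and 0.481 FPKM in m9327.

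The lower tail differed in the same way. In line m4447, 37 members had no read in the first duplicate and 37 had none in the second, and 24 had none in either. In line m9327 the corresponding counts were 9, 12 and 5. Values under 0.1 FPKM were found for 74 and 66 members in the duplicates of m4447 and for 20 and 19 members in those of m9327. Together the members took 0.139% and 0.139% of the reads in the m5567 libraries and 0.160% and 0.156% in the m8905 libraries. They took 0.0110% and 0.0111% in m4447, and 0.0217% and 0.0217% in m9327.

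MGP_FVBNJ_G0031619 had the largest fall on the log2(FPKM + 1) scale. Its level was 36.5 and 37.4 FPKM in the duplicates of line m5567 and 122 and 115 FPKM in those of m8905. In the NIC/c-SrcL/L libraries it was 0.036 and 0.242 FPKM in m4447 and 0.105 and 0.438 FPKM in m9327. The control and the deficient libraries did not overlap, and within the controls both duplicates of m8905 lay above both of m5567. The gene is 1678 bp long, and its deficient values rested on 1, 7, 3 and 11 reads, against 932 to 3643 reads in the control libraries. The exact Poisson 95% intervals, which cover counting error only, ran from 0.000913 to 0.201 FPKM in the first duplicate of m4447 and from 0.219 to 0.784 FPKM in the second duplicate of m9327, so the highest deficient value was still under 1 FPKM within its counting error. The line means of the control lines averaged 77.7 ± 57.7 FPKM and those of the deficient lines 0.205 ± 0.0937 FPKM (SD, n = 2 lines each), a ratio of 379.

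The gene with the next identifier in the numbering also had a large fall but was not a member. It had 46.0, 52.9, 84.4 and 81.8 FPKM in the control libraries, 0 and 0.217 FPKM in m4447, and 1.31 and 1.25 FPKM in m9327. The rule left it out because line m9327 stayed above 1 FPKM. Whether the models of these neighbours in the numbering overlap was not tested.

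MGP_FVBNJ_G0007660 was the only member without a read in any NIC/c-SrcL/L library. It had 12.9 and 10.4 FPKM in the duplicates of m5567 and 1.84 and 2.33 FPKM in those of m8905. These values are less secure than they look, because the gene model is 61 bp long, shorter than the cDNA fragments selected for the libraries, and 1 read was worth 0.922 to 1.17 FPKM. The control values came from 12, 10, 2 and 2 reads. With 0 reads in each, the upper Poisson limits in the deficient libraries were 3.66, 3.51, 3.54 and 4.04 FPKM, above the level in line m8905.

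The other members with large falls had more reads behind them. The member of rank 2 by the size of the fall, 284 bp long, had 34.0, 41.0, 42.8 and 32.5 FPKM in the control libraries. In the deficient libraries it had 0.852, 0.816, 0.824 and 0.235 FPKM, from 4, 4, 4 and 1 reads. The control lines overlapped in this member, and 1 FPKM was worth 4.57 reads, so its deficient values lay within counting error of the threshold. The member of rank 3, 2266 bp long, had 17.8, 17.1, 20.2 and 21.0 FPKM in the control libraries. It had 0.0534 and 0.0256 FPKM in m4447 and 0.362 and 0.502 FPKM in m9327, so both duplicates of m4447 lay below both of m9327. The member of rank 7, 1292 bp long, had 13.7 and 12.5 FPKM in m5567 and 9.41 and 9.63 FPKM in m8905. It had no read in m4447, and 0.136 and 0.103 FPKM in m9327, from 3 and 2 reads.

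By the ratio of the lowest control value to the highest deficient value, the member of rank 10, 1895 bp long, was the furthest apart. Its control values were 7.03, 7.81, 7.01 and 6.60 FPKM, from 176 to 236 reads. In the deficient libraries it had 0 and 0.0306 FPKM in m4447 and 0.0309 and 0 FPKM in m9327, with 1 read in each of the libraries above 0. The lowest control value was 214 times the highest deficient value, the largest such ratio in the set. This leaves aside the gene with no reads, for which no ratio can be given. The highest deficient value came from 1 read, so the ratio is imprecise.

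**Figure D2:**
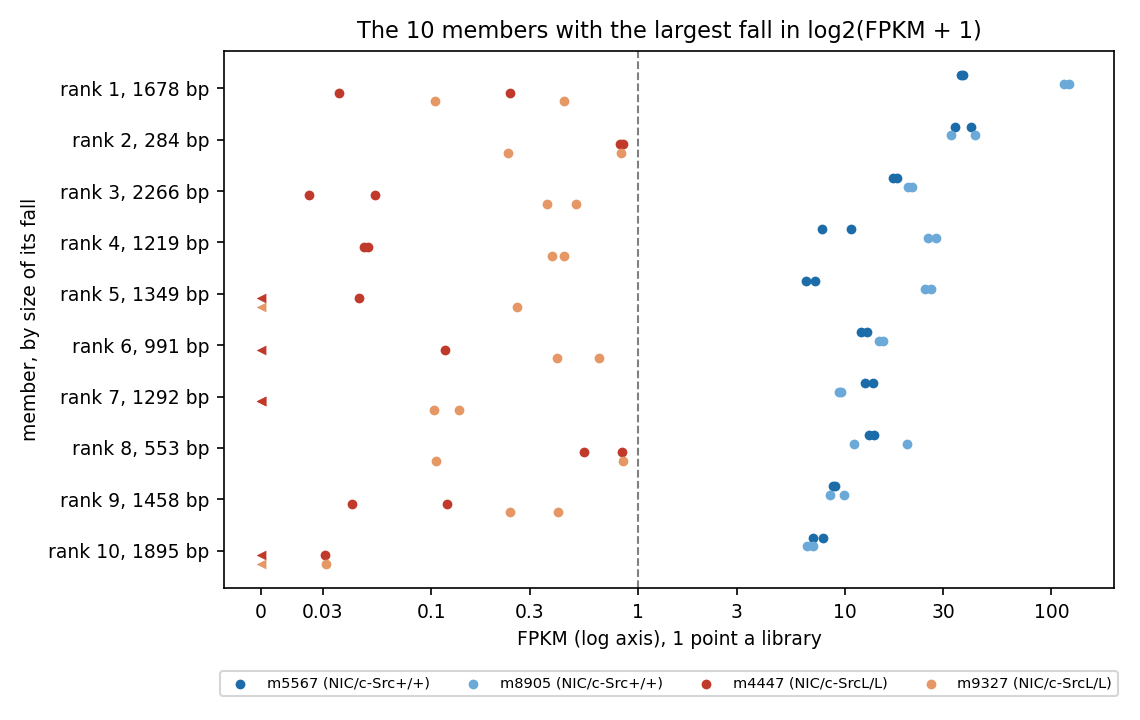
FPKM in each of the 8 libraries, on a log axis, for the 10 members with the largest fall between the means of the control and the deficient lines, labelled by rank and gene length, with values of 0 as triangles at the left edge and a dashed line at 1 FPKM. All control values of these members are at 6.47 FPKM or more and all deficient values at 0.852 FPKM or less, while the colors of the deficient lines are mixed in some members and apart in others.

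At the other end, some members moved little. The member of rank 181, with the smallest fall, had 1.26, 1.24, 1.39 and 1.31 FPKM in the control libraries. It had 0.537 and 0.772 FPKM in m4447 and 0.995 and 0.964 FPKM in m9327, which is 50.2% and 75.2% of the control mean. The ratio of the lowest control value to the highest deficient value was smallest in the member of rank 143, at 1.14. Over the set this ratio had quartiles of 1.75 and 6.62 and a median of 3.18. It was under 1.5 in 29 members and under 2 in 57, and at least 10 in 27 members, counting the gene without deficient reads.

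The values next to the threshold show how fine the division was. Of the members, the closest to the limit on the deficient side reached 0.997 FPKM in the second duplicate of m9327, from 24 reads. The member closest on the control side had 1.002 FPKM in the first duplicate of m8905, from 81 reads. Just outside, a gene at 1.66 FPKM or more in the control libraries was left out by 1.01 FPKM in the first duplicate of m4447, from 23 reads. A gene at 0.101 to 0.626 FPKM in the deficient libraries was left out by 0.994 FPKM in the second duplicate of m5567, from 47 reads. In all, 153 genes missed the rule in exactly 1 library, 78 of them in a control library, 13 in an m4447 library and 62 in an m9327 library.

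Counting error was of the size of these margins. The exact Poisson 95% interval lay above 1 FPKM in all 4 control libraries for 108 members and below 1 FPKM in all 4 deficient libraries for 87. It was clear of 1 FPKM in all 8 libraries for 56 of the 181. For 12 members 1 FPKM was worth under 10 reads.

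The level kept in a deficient line was expressed as a percent of the mean of the control lines. In line m4447 the members kept a median of 6.58% (quartiles 0.932% and 21.0%, highest 63.5%), and in line m9327 a median of 19.1% (quartiles 7.54% and 34.5%, highest 75.2%). The medians from single duplicates were 5.94% and 7.27% for m4447 and 18.4% and 18.3% for m9327. Over the 10730 control-expressed genes, the median level kept was 88.5% in m4447 and 94.2% in m9327. Among the members, 103 were under 10% of the control mean in m4447 and 62 in m9327, and 46 and 11 were under 1%. Over 50% was kept by 5 members in m4447 and by 13 in m9327, and 4 members kept over 50% in both.

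Taken over both lines, the members fell into 4 groups of unequal depth. In 53 members the level was under 10% in both lines, in 50 it was under 10% in m4447 only, in 9 under 10% in m9327 only, and in 69 it was 10% or more in both. The 53 members low in both lines had a median control mean of 5.69 FPKM and kept a median of 0.563% in m4447 and 3.85% in m9327. The 69 members that kept 10% or more in both had a median control mean of 1.76 FPKM and kept 26.7% and 34.2%. The rule holds the deficient values under 1 FPKM, so a member with a control mean of 10 FPKM or more had to be under 10% in both lines, and the rise of the control level with the depth of the fall is in part built into the rule. The division at 10% was chosen after the values were seen and serves as a description.

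The 50 members under 10% in m4447 only had a median control mean of 2.18 FPKM and kept a median of 3.48% in m4447 and 20.3% in m9327. The member with the largest fall among them, of rank 33 in the set, had 5.48 and 4.89 FPKM in m5567 and 6.58 and 5.02 FPKM in m8905. It had 0.101 and 0.169 FPKM in m4447 and 0.635 and 0.642 FPKM in m9327, from 4 and 7 reads against 26 and 23. The 9 members of the opposite kind had a median control mean of 3.54 FPKM and kept 13.1% in m4447 and 6.90% in m9327. The largest fall among them, of rank 40, was from 6.95, 5.33, 5.95 and 5.48 FPKM in the control libraries to 0.697 and 0.835 FPKM in m4447 and 0.337 and 0.481 FPKM in m9327. In these examples the duplicates of each deficient line stayed on their own side of the other line.

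**Figure D3:**
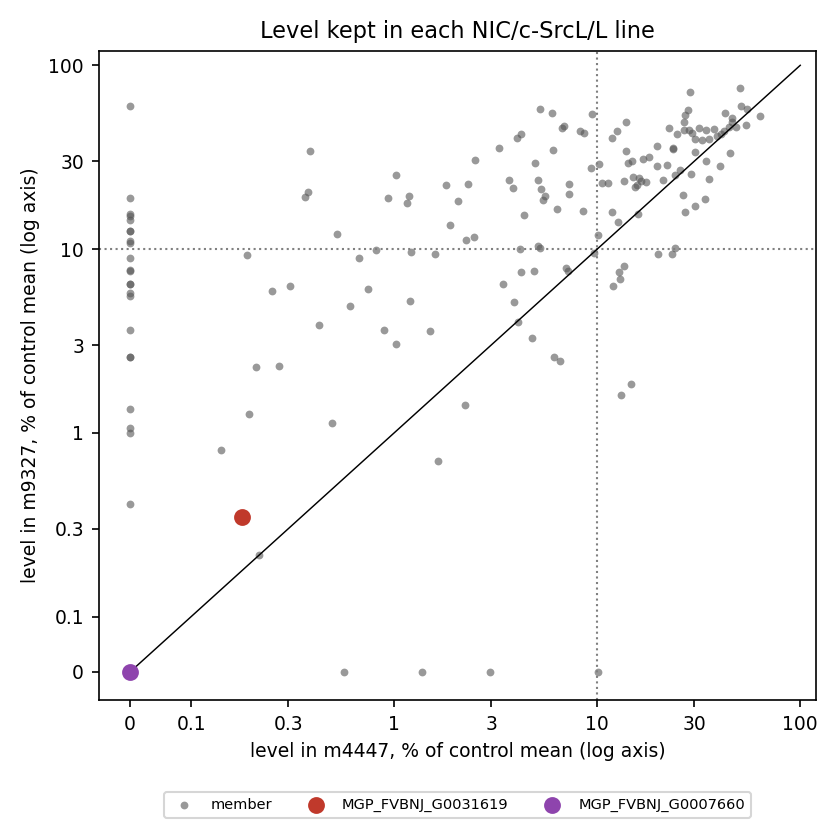
Level of each member in line m4447 (horizontal) and line m9327 (vertical), in percent of the mean of the control lines, on log axes with members at 0 drawn at the edge, dotted lines at 10% and a diagonal at equal levels. Most points lie above the diagonal, with 50 members left of 10% in m4447 and at or above 10% in m9327, against 9 in the opposite corner.

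How often a control-expressed gene entered the set depended on its control level. Of the 543 genes with a control mean under 2 FPKM, 78 were members (14.4%), against 66 of 1814 from 2 to 5 FPKM (3.64%), 26 of 1897 from 5 to 10 FPKM (1.37%), 9 of 1992 from 10 to 20 FPKM (0.452%) and 2 of 4484 above (0.0446%). The share of genes that kept under 25% in both lines, a measure that does not use 1 FPKM in the deficient lines, changed less, from 4.24% of genes under 2 FPKM to 1.16% of those at 20 FPKM or more. The rule thus took a gene at a low control level after a small fall, and left out a gene at a high level after a large one. Of the 64 control-expressed genes under 10% in both deficient lines, 53 were members and 11 were not, and the 11 had a median control mean of 45.3 FPKM. Of the 227 genes under 25% in both lines, 110 were members.

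**Figure D4:**
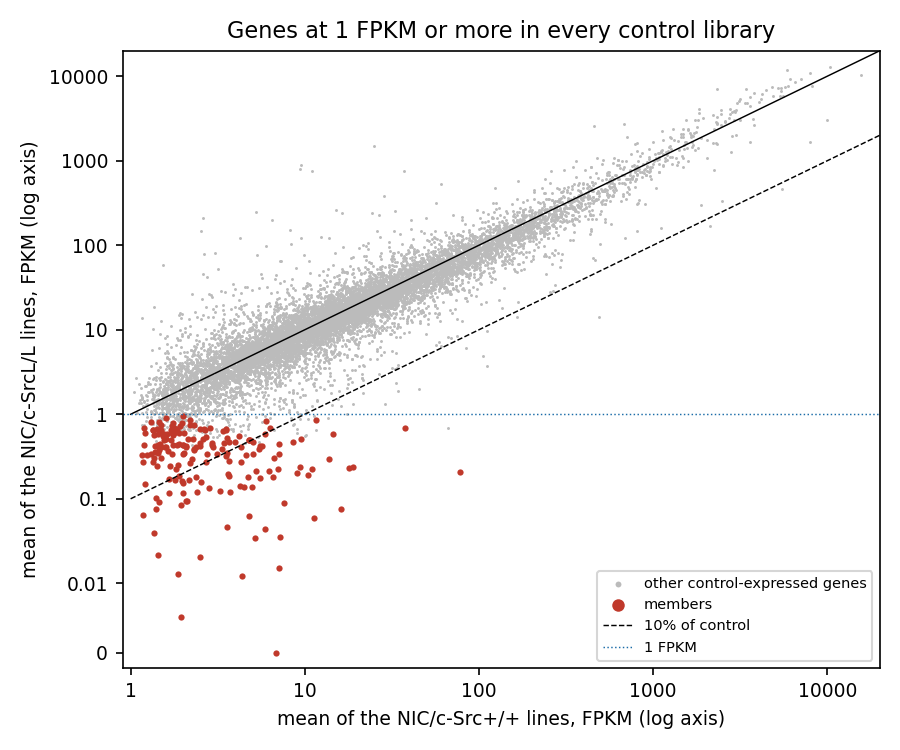
Mean of the deficient lines against the mean of the control lines, in FPKM on log axes, for the 10730 control-expressed genes, with the 181 members in red, a solid line at equal levels, a dashed line at 10% of control and a dotted line at 1 FPKM. Most members have control means under 5 FPKM, and 2 have control means of 20 FPKM or more.

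Gene length was not used by the rule. The members had a median length of 2174 bp (quartiles 1343 and 2971 bp, range 61 to 7969 bp). The 10730 control-expressed genes had a median of 1742.5 bp and quartiles of 1154 and 2633 bp. Members under 500 bp numbered 8 (4.42%), against 250 (2.33%) of the control-expressed genes. The lengths were those implied by the FPKM values.

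The difference between the deficient lines was examined in a fit of all 8 libraries on the log2(FPKM + 1) scale, in which the duplicates give the spread. The question was whether the members, all low in both lines, were equally low. All 181 passed the filter at a mean of 0.5 FPKM over the 8 libraries, which the rule itself guarantees. Lower in m4447 than in m9327 at an adjusted p under 0.05 were 63 members (34.8%), against 29.0% of the 12673 genes tested, and higher in m4447 was 1 member (0.552%), against 18.2% of the genes tested (limma, Benjamini-Hochberg adjustment). The median difference of m4447 minus m9327 was -0.22 over the members and -0.09 over all genes tested. Because both lines are held under 1 FPKM, a difference on this scale cannot reach 1 in these genes. The members passed the filter through their control values, and the rule capped the values compared. The spread in the fit is pooled over all 4 lines, and the genes tested include genes of any level. The fit therefore cannot decide whether the members were equally low, and the counts of members are a description only. The fit compares these lines, each with its own duplicates, and not a genotype.

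The direction of these calls depended on the scaling, for the members mainly on quantile normalization. After quantile normalization 28 members were lower and 20 higher in m4447, against 3065 and 3174 of the 12673 genes tested. The members' shares were then below those of all genes in both directions. Of the members' calls 58.3% were lower, against 98.4% with the deposited values. Over all genes tested the share of lower calls was 61.5% with the deposited values, 51.5% after median ratio rescaling and 49.1% after quantile normalization. Median ratio rescaling gave 62 lower and 3 higher members, so 95.4% of the members' calls were lower, against 3193 and 3013 of the genes tested.

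Among the 63 members lower in m4447, the median level was 0.0816 FPKM in m4447 and 0.589 FPKM in m9327, and 41 of the 63 were under 10% of control in m4447 only. The log2 differences of the 63 ran from -0.96 to -0.29. The member with the largest, of rank 49 by its fall, had 6.50 and 6.11 FPKM in m5567 and 3.29 and 3.30 FPKM in m8905. It had 0.036 FPKM and 0 in m4447, from 1 and 0 reads, and 0.976 and 0.996 FPKM in m9327, from 28 and 25 reads. The single member higher in m4447, of rank 47 and 2387 bp long, was at 3.71 and 4.29 FPKM in m5567 and at 3.04 and 3.66 FPKM in m8905. It had 0.329 and 0.413 FPKM in m4447, from 13 and 17 reads, and no read in m9327, a log2 difference of 0.45.

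Without a test, both duplicates of m4447 lay below both of m9327 in 115 members, and above both in 13. Over all genes tested these arrangements were found in 43.1% and 28.5%. The lines were at least 2-fold apart in 106 members (58.6%), against 13.5% of the control-expressed genes, but members have few reads in these lines and ratios of few reads vary widely. For MGP_FVBNJ_G0031619, with 1 to 11 reads in these libraries, the log2 difference was -0.15 (standard error 0.14), and whether the lines differ in it cannot be told at this depth.

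**Figure D5:**
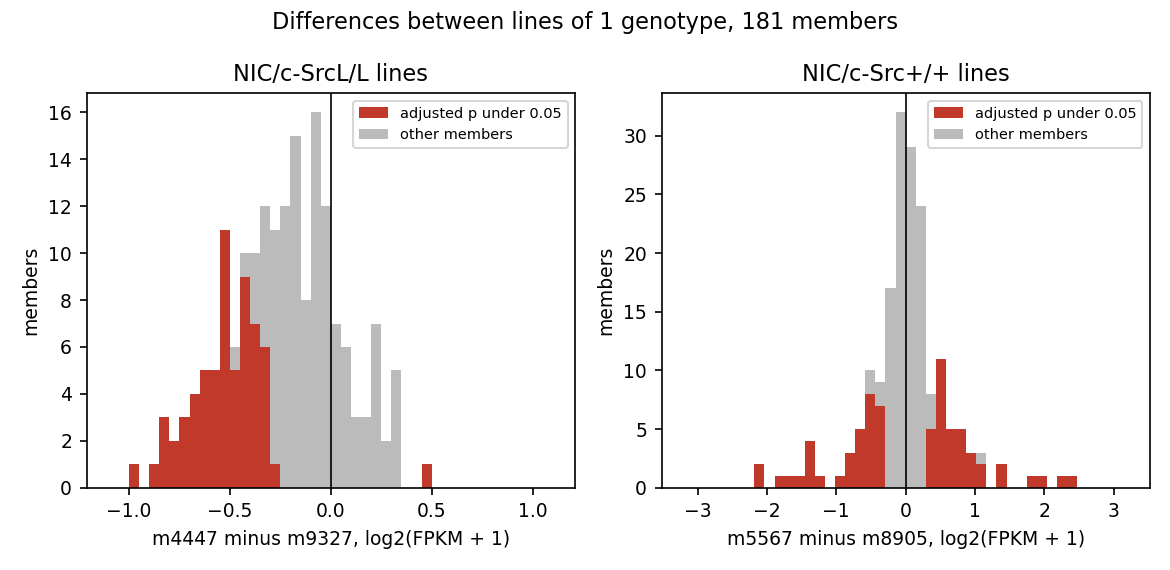
Number of members by the difference between the lines of a genotype in log2(FPKM + 1), m4447 minus m9327 on the left and m5567 minus m8905 on the right, with members past the adjusted p threshold of 0.05 in red and stacked on them the others in gray. The red members lie almost all below 0 on the left, 63 against 1, and on both sides of 0 on the right, 34 and 37.

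The control lines were compared in the same fit, where 34 members were lower in m5567 than in m8905 (18.8%), against 11.9% of the genes tested, and 37 were higher (20.4%), against 12.0% (limma, adjusted p under 0.05). With a pseudocount of 0.1 the counts were 19 and 22 members, and 1260 and 1276 of the 12673 genes tested, so the members' shares were then near those of all genes. The spread is pooled with the deficient libraries, where the rule holds the members under 1 FPKM. These counts of members are therefore a description as well. Without a test, both duplicates of m5567 were below both of m8905 in 55 of the 181 members and above both in 63, near the 32.6% and 35.5% of all genes tested. The control lines were at least 2-fold apart in 29 members (16.0%) and in 5.06% of the control-expressed genes, with a median fold of 1.28 and 1.16. The members had lower control levels, with a median of 2.26 against 14.7 FPKM, and ratios of few reads vary more. Genes of matched level were not compared. Without a library of m5567 or of m8905 the counts of members called fell to between 20 and 23 lower and between 22 and 30 higher. Over all genes tested the counts fell as well, from 1514 and 1515 to between 906 and 928 lower and between 873 and 1027 higher.

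By the ratio of the line means, the largest difference toward m5567 was in the member of rank 13, with 18.9 and 19.4 FPKM in m5567 and 2.68 and 2.90 FPKM in m8905. It had 0.137 and 0.0876 FPKM in m4447 and 0.265 and 0.404 FPKM in m9327. By the same ratio, the largest toward m8905 was in the member of rank 38, with 1.59 and 1.41 FPKM in m5567 and 9.72 and 9.31 FPKM in m8905. It had no read in m4447 and 0.391 and 0.316 FPKM in m9327. In both members the duplicates of each line were close to each other and the control lines did not overlap. Both genes given by identifier were called different between the control lines in the main fit, each with a limit given here. The log2 difference of m5567 minus m8905 was -1.66 for MGP_FVBNJ_G0031619 (standard error 0.14, adjusted p = 6.74e-05 from limma, but 0.082 with a pseudocount of 0.1) and 2.03 for MGP_FVBNJ_G0007660 (standard error 0.12, adjusted p = 9.55e-06 from limma). The latter was chosen for its lack of reads in the deficient lines, and those values of 0 enter the spread of the fit. The fit also does not know how few reads the gene had, so nothing is read from its adjusted p. The Poisson intervals of the second duplicates overlapped, from 4.97 to 19.1 FPKM in m5567 and from 0.282 to 8.42 FPKM in m8905. Those of the first duplicates were just apart, from 6.674 to 22.6 FPKM in m5567 and from 0.223 to 6.664 FPKM in m8905.

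The difference between the genotypes was also fitted on the line means, 2 lines against 2, as a description. In this fit 22 of the 181 members were past an adjusted p of 0.05 toward lower values in NIC/c-SrcL/L, and 0.292% of the 12673 genes tested were, 37 in all (limma). Both without a filter and with voom on the solved reads, 0 members and 0 of all genes tested were called lower. Since the genotype contrast chose the members, nothing is read from these counts. By the rule all 181 had the 4 control libraries above the 4 deficient ones, an arrangement found in 24.0% of the genes tested. The log2 fold changes of the members ran from -5.81 to -0.35, with a median of -1.28 and quartiles of -2.01 and -0.85. A pseudocount of 1 FPKM understates the change of genes at such low levels.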

How the data were processed

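RNA-Seq libraries from 4 cell lines in biological duplicate were grouped by genotype and line from the sample labels. The authors aligned paired-end reads of poly-A libraries to the FVB/N genome with TopHat2 2.0.12 and Bowtie2 2.2.3, counted reads with HTSeq 0.6.1 and deposited FPKM per gene, computed from gene length and read counts. Neither strandedness nor the release of the annotation is given in the sources used here, so reads of a gene and of an antisense partner cannot be told apart.

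The deposited FPKM values were used without rescaling. The members and lists were chosen with earlier results of these data known. Members had at least 1 FPKM in each of the 4 control libraries and under 1 FPKM in each of the 4 deficient libraries. Python 3.11.15 (numpy 2.4.6, pandas 2.3.3) was used to solve whole reads, lengths and totals, and scipy 1.17.1 to compute Poisson intervals. Differences were tested with limma 3.58.1 (R 4.3.3), by default lmFit and eBayes settings, on log2(FPKM + 1), over 12673 genes whose mean was at least 0.5 FPKM, at an adjusted p under 0.05 (Benjamini-Hochberg). Lines of a genotype were compared by contrasts in a fit of all 8 libraries with 1 mean a line. Genotypes were compared on line means, with n = 2 lines each. The read solution and the fits were tested on simulated data with 200 changed genes.

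The rule for identifiers takes the member with the largest fall in log2(FPKM + 1) and, among the members with the fewest reads in the deficient libraries, the member with the highest control mean. Alternatives were other levels in the rule, another pseudocount, other filters, rescaling, an intensity trend, voom on the solved reads, a random block for the line, a block for the duplicate number, and each library or line left out. The gene lists and cell type markers needed gene names and were not analysed here. Figures were drawn with matplotlib 3.10.9.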

Additional observations from a re-analysis of the deposited data

Results flagged for a closer look

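In the fit of the difference between the NIC/c-SrcL/L lines, 63 members (34.8%) were lower in m4447 than in m9327 and 1 (0.552%) was higher (limma, adjusted p under 0.05). Of all 12673 genes tested, 29.0% were lower and 18.2% higher. The rule holds the values compared under 1 FPKM, and the members passed the filter through their control values. The counts are a description, and nothing about the members is concluded from them. After median ratio rescaling the counts were 62 and 3, against 3193 and 3013 of all genes tested. After quantile normalization they were 28 and 20, against 3065 and 3174, so the members' shares were then below those of all genes. With voom they were 82 and 4, against 3988 and 2519 of all genes tested. With a pseudocount of 0.1 they were 93 and 8, against 3496 and 2101. The part of read depth in this difference was not tested.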

How the results depend on the processing

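All alternatives were planned. The number of genes that met the rule, 181, was 62 and 8 with the deficient level under 0.5 and 0.1 FPKM, and 68 and 22 with the control level at 2 and 5 FPKM or more. Median ratio rescaling gave 166 genes, 165 of them members, and a common total gave 189, of which 160 were members. Without a library the count was 186 to 217. Fewer conditions let more genes through, and without line m5567, m8905, m4447 or m9327 there were 305, 301, 241 and 500.

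The median level kept in m4447, 6.58%, stayed between 5.94% and 7.27% in all alternatives. In m9327, 19.1%, it was 19.6% with median ratio rescaling, 18.6% with a common total, 18.4% and 20.6% against m5567 or m8905 alone, and 17.8% to 19.8% without a library.

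Members called lower on line means, 22 (37 of all genes tested), numbered 9 (11) with a pseudocount of 0.1 and 16 (23) after median ratio rescaling. With a mean of 2 FPKM, which left 56 members, they numbered 28 (60). They numbered 0 (0) both without a filter and with voom in limma. In each of these 158 members had an unadjusted limma p under 0.05, against 3913 of 22673 genes without a filter and 2785 of 12673 with voom. With the line as a random block, members called lower were 132 (968), and with independent libraries 181 (2796). The genotype contrast chose the members, so these counts support nothing about them. Without a library they ran from 16 to 25 (21 to 44), and the lowest counts over all genes came without the first duplicate of m9327 (21) or of m5567 (24).

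For the deficient lines, 63 members were lower in m4447 and 1 higher. Counts over all genes tested follow in brackets. Quantile normalization gave 28 and 20 (3065 and 3174), and median ratio rescaling 62 and 3 (3193 and 3013). A pseudocount of 0.1 gave 93 and 8 (3496 and 2101), and voom 82 and 4 (3988 and 2519). A mean of 2 FPKM left 56 members and gave 26 and 1, against 3247 and 2042 of 10452 genes. Without a library the counts ran from 49 to 63 and from 1 to 4. Over all genes tested, 3678 lower and 2305 higher, they were 2850 to 3710 and 1767 to 2288.

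For the control lines, 34 members were lower in m5567 and 37 higher. A pseudocount of 0.1 gave 19 and 22, against 1260 and 1276 of all genes tested. A mean of 2 FPKM left 56 members and gave 19 and 16, against 1406 and 1417 of 10452 genes. Without a library the counts ran from 20 to 33 and from 22 to 35, and over all genes tested, 1514 and 1515, from 906 to 1680 and from 873 to 1677. A line left with 1 library was assumed to vary like the others. Except where fewer genes, libraries or conditions entered, the cause of these changes was not tested.

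The duplicate number as a replicate block moved the counts to 125 members (782 genes) lower beside the random block. Between the deficient lines it gave 60 and 1 members, against 3507 and 2199 of all genes tested. Between the control lines it gave 34 and 36 members, against 1386 and 1377 of all genes tested. The labels give the duplicates only a number, and whether a number marks a shared batch was not tested. The correlation of the deviations of same-numbered duplicates across genes ran from -0.181 to 0.0633 over the pairs of lines.

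MGP_FVBNJ_G0031619 had log2 fold changes from -8.37 to -5.72 in 18 alternatives of the genotype fit, a description, since that fall chose it. Its difference between the deficient lines, -0.152, was 0.0811 after quantile normalization, -0.622 with a pseudocount of 0.1 and -0.939 with voom, and without a library ran from -0.343 without the first duplicate of m9327 to 0.0382 without the second, called in none. With a pseudocount of 0.1 its difference between the control lines, -1.68 against -1.66, was not called (adjusted p = 0.082, the highest of its 16 alternatives there, and 1.8e-10 the lowest).

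Read depth limits what can be said of single members. 1 read on 1 kb was worth 0.0563 to 0.0711 FPKM, and 125 members had a Poisson interval that reached 1 FPKM in at least 1 library.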
